A study of Mus musculus with 6 samples.

Results

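The genes described here are 37 protein-coding mouse genes whose products build the acrosome, bind the zona pellucida or act in the fusion of sperm and egg. They were taken by symbol from a list drawn up for these roles, and all 37 were found among the 55487 genes of the deposited count table. The testes came from mice at postnatal day 19 and were profiled by sequencing of polyadenylated RNA. There were 3 dsfb testis libraries, which per the title of the series carry the SFB form of both Hormad1 and Hormad2 in homozygous state, and 3 control libraries whose genotype is given only as control. Both genes encode components of the axis along which meiotic chromosomes are organised. The labels give neither what the SFB alleles change nor the strain of the mice. They place the testes in different mice, so that n = 3 in each group counts animals. The question posed by the design is how the testis transcriptome differs between dsfb and control mice.

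The acrosome is a secretory vesicle that grows from the Golgi apparatus over the nucleus of the round spermatid and releases its content when the sperm meets the egg coat. Its matrix holds proteases and hyaluronidases, its membranes carry proteins that later face the egg, and proteins of the nuclear envelope and perinuclear theca hold it to the nucleus. Transcription of many acrosomal genes begins in pachytene spermatocytes, well before the vesicle is complete, while others are first transcribed in round spermatids. In the first wave of mouse spermatogenesis, germ cells of this age are mostly in meiosis and round spermatids are only beginning to form.

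Depth was lower in the dsfb libraries, with 15335130 to 17306363 counted reads, than in the control libraries, with 23983373 to 27707291. All levels below are therefore CPM (read counts per 1000000 reads) on library totals scaled by the trimmed mean of M-values (TMM), whose factors were 1.14 to 1.163 in dsfb and 0.844 to 0.897 in control libraries. Hormad1 had 217, 245 and 243 CPM in dsfb testes, against 445, 485 and 208 CPM in control testes, and Hormad2 had 25.1, 28.6 and 27.3 CPM in dsfb testes, against 59.9, 54.9 and 42.7 CPM in control testes. Since the labels do not describe the alleles, these levels do not check the genotype labels. Control replicate 3 stood apart from the other control libraries. Over the 20825 and 21043 genes with enough reads in each pair, its counts differed from those of control replicates 1 and 2. The chi-square was 74.05 and 69.8 per degree of freedom, against 6.85 between control replicates 1 and 2. Among the dsfb libraries it was 4.09 to 8.59, over 17341 to 17578 genes and at lower depth, on which this value depends. Control replicate 3 held more than 4 times the mean CPM of control replicates 1 and 2 for 3.7% of the 19826 genes tested and for 23 of the 37 acrosome and fusion genes. Where leaving out that library moves a called fold by more than 1.5 times, the value without it is given beside the result, also for the medians of gene groups. No pair of libraries agreed within sampling noise, and all 6 were used.

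Acrosome and fusion transcripts were lower in dsfb testes, from proacrosin (Acr) and the zona pellucida binding proteins to the Izumo and Dcst fusion proteins. Of the 35 members that passed the filter on low counts, 33 fell and 0 rose in edgeR's quasi-likelihood test (adjusted p under 0.05 by the Benjamini-Hochberg method over all 19826 genes), against 36.2% of all tested genes that fell and 30.7% that rose (66.9% in either direction). The adjusted p-values given below come from that fit unless another test is named. Spaca6 and Calr3 did not pass the test, and Iqcf1 and Cabs1 had too few reads to enter it. The median log2 fold change of the tested members was -5.44, with 5 members of 0 dsfb counts at their lower bounds or at their fitted values, beside 0.02 over all genes tested. Without control replicate 3, 32 of 34 tested members fell and 1 rose, against 38.4% of genes that fell and 33.2% that rose, and the members' median was -4.58.

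The filter itself bears on this count. Of the 35 tested members, 15 reached the filter's cutoff in control libraries only, and 99.9% of all 1763 genes that did so fell. The other 20 members reached the cutoff in at least 1 dsfb library, and 18 of these 20 fell (90%), beside 30% of the 18063 genes of that kind. In all, every dsfb library was below every control library for 33 of the 37 members, an arrangement found for 38.5% of all genes tested. The groups overlapped for Spaca6, Calr3, Iqcf1 and Cabs1.

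As a share of all counted reads, the 37 genes together made up 0.0265%, 0.0286% and 0.0296% in dsfb testes, against 0.325%, 0.359% and 0.436% in control testes. The mean share was 0.0282% ± 0.00155 in dsfb testes and 0.374% ± 0.0569 in control testes (SD, n = 3 each). At least 1 read was counted for 28, 28 and 25 of the 37 genes in the dsfb libraries, against 35, 36 and 37 in the control libraries. In bulk tissue a smaller number of cells of a type and less RNA per cell cannot be told apart, and this holds for all differences below.

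**Figure D1:**
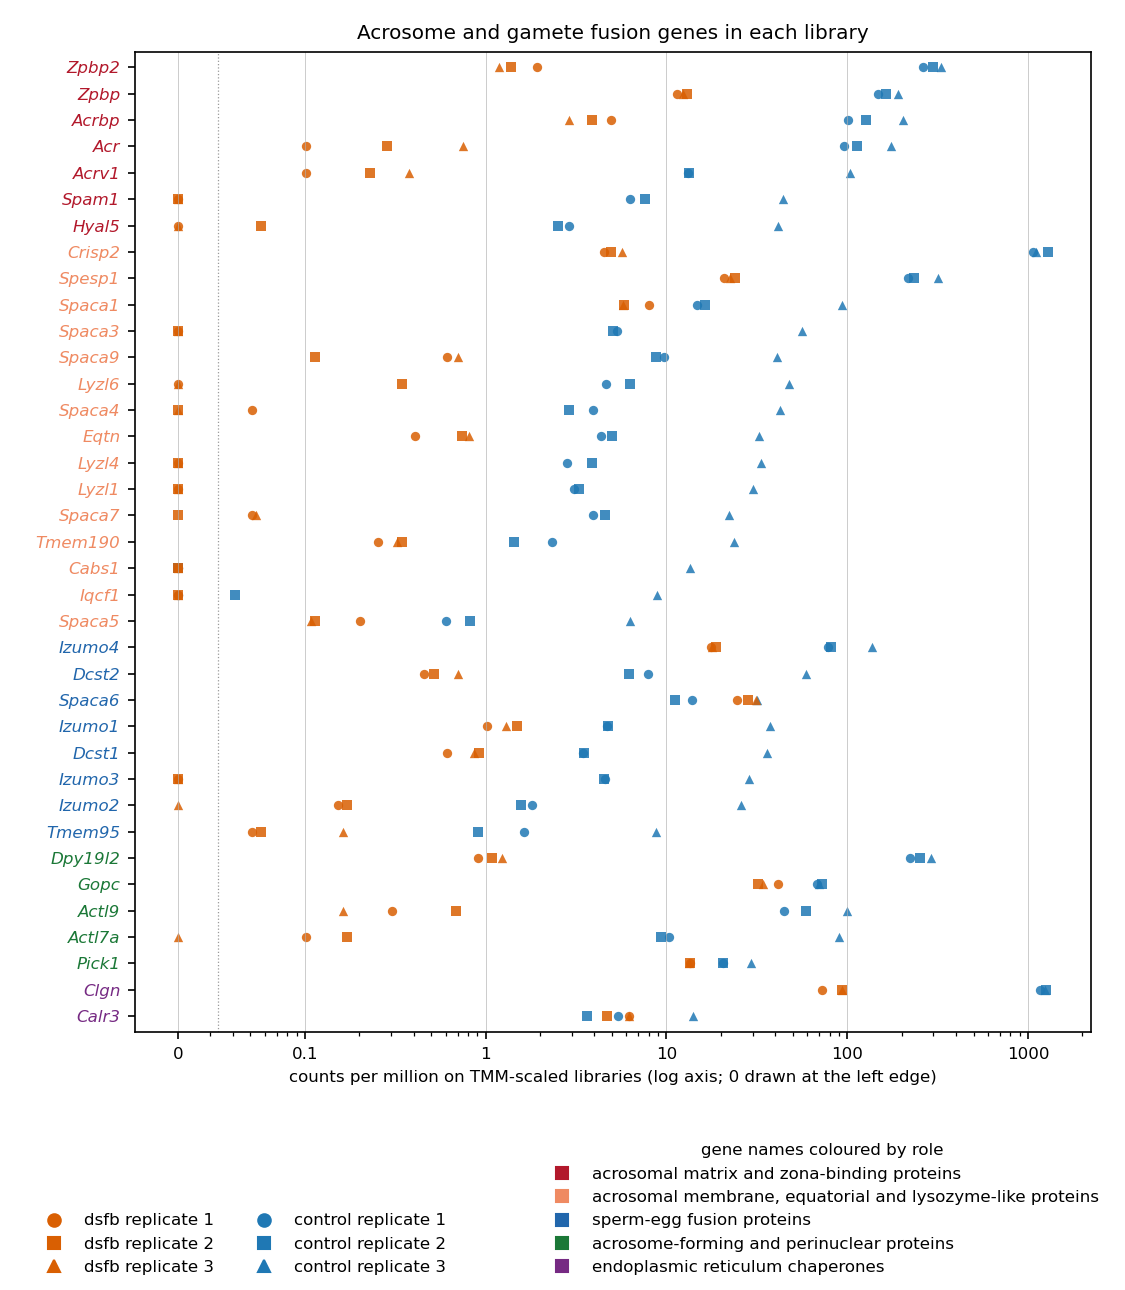
Level of each of the 37 genes in each library, in CPM on a log axis, with dsfb libraries in orange, control libraries in blue, counts of 0 at the left edge and gene names coloured by role. The dsfb points of 33 genes lie below all of their control points, and the control points of many genes spread widely because control replicate 3 lies to the right of the other control libraries.

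The level of a transcript per kilobase of exon allows genes to be ranked against each other. In control testes the highest were Crisp2 with 409 CPM per kilobase, the endoplasmic reticulum chaperone Clgn with 305, Zpbp2 with 176, Spesp1 with 84.4, Acr with 81.7 and Dpy19l2 with 74.3 CPM per kilobase. The order was different in dsfb testes, where Clgn came first with 21.5 CPM per kilobase, followed by Spesp1 with 7.36, Izumo4 with 6.48, Spaca1 with 4.11 and Spaca6 with 3.98 CPM per kilobase. Spaca6 had the lowest mean of the 37 in control testes, 2.67 CPM per kilobase, and this place rests on control replicate 3. In control replicates 1 and 2 it had 1.96 and 1.59 CPM per kilobase, above Cabs1, Iqcf1, Dcst1, Spaca5, Hyal5 and Izumo1 in both. Crisp2, first in control testes, ranked 10 in dsfb testes with 1.79 CPM per kilobase. Crisp2 and Clgn together supplied 33.1% to 39.1% of the members' reads in dsfb libraries and 45.5% to 62.2% in control libraries.

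The genes lie on 14 chromosomes and only Spaca5 is on the X chromosome. The promoters of 5 of them are shown, chosen for the range of responses they cover: Zpbp2, whose transcript fell strongly with a small spread, Spesp1, which fell but kept a measurable level, Izumo1 and Dcst2 among the fusion genes, and Calr3, which did not pass the test. Each runs from 250 bases before to 50 bases after the RefSeq start (build GRCm38.p6), on the strand of the gene and 5′ to 3′. Capitals mark matches on either strand to 3 short motifs, the CRE core TGACGT, the MYB core CAACNG and the RFX core GTTGCC. These are binding letters of the cAMP-responsive, MYB and RFX families, members of which (CREM, MYBL1 and RFX2) regulate male germ cell transcription. Positions count from the start, whose base has the first positive number, and there is no position 0.
Spesp1, chr9:62282130-62282429, minus strand: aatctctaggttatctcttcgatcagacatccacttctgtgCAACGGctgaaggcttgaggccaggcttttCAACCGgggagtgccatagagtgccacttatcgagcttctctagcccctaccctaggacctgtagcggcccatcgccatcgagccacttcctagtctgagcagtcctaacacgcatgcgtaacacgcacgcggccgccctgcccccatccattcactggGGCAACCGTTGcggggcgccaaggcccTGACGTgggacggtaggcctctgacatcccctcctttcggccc
Zpbp2, chr11:98550847-98551146, plus strand: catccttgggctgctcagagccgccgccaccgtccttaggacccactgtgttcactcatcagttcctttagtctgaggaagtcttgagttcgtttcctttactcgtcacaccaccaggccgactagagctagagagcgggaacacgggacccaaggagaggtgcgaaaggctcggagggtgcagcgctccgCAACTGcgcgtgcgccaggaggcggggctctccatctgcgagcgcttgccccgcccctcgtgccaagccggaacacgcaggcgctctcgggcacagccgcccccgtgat
Izumo1, chr7:45621561-45621860, plus strand: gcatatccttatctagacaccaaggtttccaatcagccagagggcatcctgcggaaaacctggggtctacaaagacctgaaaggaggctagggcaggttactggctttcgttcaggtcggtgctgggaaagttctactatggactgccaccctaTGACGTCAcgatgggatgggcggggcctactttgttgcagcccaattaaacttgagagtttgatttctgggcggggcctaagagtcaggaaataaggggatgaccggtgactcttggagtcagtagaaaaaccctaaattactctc
Dcst2, chr3:89365069-89365368, plus strand: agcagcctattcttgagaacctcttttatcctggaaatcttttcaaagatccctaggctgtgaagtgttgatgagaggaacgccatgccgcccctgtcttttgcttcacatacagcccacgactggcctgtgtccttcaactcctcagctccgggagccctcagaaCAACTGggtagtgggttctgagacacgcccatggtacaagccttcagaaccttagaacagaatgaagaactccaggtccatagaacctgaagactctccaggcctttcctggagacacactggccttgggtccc
Calr3, chr8:72443729-72444028, minus strand: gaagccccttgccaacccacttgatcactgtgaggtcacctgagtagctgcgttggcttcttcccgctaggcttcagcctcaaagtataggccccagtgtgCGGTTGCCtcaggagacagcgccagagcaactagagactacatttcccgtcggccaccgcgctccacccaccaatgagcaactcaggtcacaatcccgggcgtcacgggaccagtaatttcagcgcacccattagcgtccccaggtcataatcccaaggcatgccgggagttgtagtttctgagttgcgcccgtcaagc

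The Spesp1 promoter held 6 matches, of which the RFX core at position -20 overlaps MYB cores at -18 and -15, while other MYB cores lie at -209 and -179 and a CRE core at 8. The Izumo1 promoter held the palindrome TGACGTCA, which counts as CRE cores at -96 and -94 on opposite strands. Zpbp2 and Dcst2 held a single MYB core each, at -59 and -84. In Calr3, a MYB core at -149 overlapped an RFX core at -147. RefSeq promoters were found for 32 of the 37 genes. Promoters of chromosome 18, which holds Lyzl1, were left out for members and for all promoters alike. The CRE core was in 4 of these 32 (12.5%), namely Acrbp, Spesp1, Izumo1 and Tmem95, and in 7.64% of all 27025 promoters. The MYB core was in 18 of 32 (56.2%), against 35.1% of all promoters, and the RFX core was in 7 of 32 (21.9%), against 12.7%. These shares describe letters in a fixed window and were not tested. In RefSeq, the starts of Dcst1, on the minus strand at chr3:89365253, and Dcst2, on the plus strand at chr3:89365319, have 65 bases between them, so most of the Dcst2 window printed above lies within the transcribed part of Dcst1.

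The acrosomal matrix and zona-binding group fell as a whole, with 7 of 7 tested members lower in dsfb testes, beside 36.2% of all tested genes. Its median log2 fold change was -7.62 (-6.83 without control replicate 3). Of these 7, 3 reached the filter's cutoff in control libraries only, as did a set of genes of which 99.9% fell. Acr (chr15:89568326-89574585), which encodes the serine protease precursor proacrosin, had 0.101, 0.286 and 0.754 CPM in dsfb testes, against 95.7, 114 and 175 CPM in control testes. The groups did not overlap, and the log2 fold change was -8.39 (SE 0.465, adjusted p = 4.45e-06), or -9.35 without dsfb replicate 3. Acrbp, which encodes the protein that binds proacrosin and holds it in the matrix, had 4.97, 3.90 and 2.91 CPM in dsfb testes, against 101, 126 and 204 CPM in control testes. This was a 36.5-fold lower level, with a log2 fold change of -5.19 (SE 0.33, adjusted p = 9.42e-06). Of the 50-base stretches in Acrbp transcripts, 29.8% also occur in transcripts of other annotated genes, so its counts are less certain than those of its partner.

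Zpbp and Zpbp2 are sister genes for acrosomal proteins that bind the zona pellucida and shape the acrosome. Zpbp had 11.5, 13.1 and 12.4 CPM in dsfb testes, against 148, 164 and 191 CPM in control testes. Zpbp2 (chr11:98551097-98558665) had 1.93, 1.38 and 1.19 CPM in dsfb testes, against 262, 297 and 330 CPM in control testes. Both fell with little spread in either group, with log2 fold changes of -3.77 for Zpbp (SE 0.13, adjusted p = 4.27e-07) and -7.62 for Zpbp2 (SE 0.19, adjusted p = 1.88e-07). Zpbp thus retained a larger part of its control level than its sister gene, 13.6-fold lower against 197-fold lower, a difference between genes that was not tested.

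Acrv1, which encodes the matrix protein SP-10, had 0.101, 0.229 and 0.377 CPM in dsfb testes, against 13.1, 13.3 and 104 CPM in control testes. Control replicate 3 was far above the other control libraries here, and the log2 fold change was -7.51 (SE 1.18, adjusted p = 0.000965) with it and -5.81 without it. The hyaluronidase genes Spam1 and Hyal5, whose enzymes open the cumulus matrix, are neighbours on chromosome 6 with 56.9 kb between them, and they share no 50-base stretch. Spam1 had 0 counts in each dsfb library, against 6.27, 7.59 and 44.2 CPM in control testes. With a floor of 3 counts over the group, its level was at least 352-fold lower in dsfb testes, or at least 129-fold lower without control replicate 3. Hyal5 had a single read over the dsfb libraries (0, 0.057 and 0 CPM), against 2.88, 2.52 and 41.2 CPM in control testes. Its ratio of control to dsfb was 840 (95% exact interval 150 to 33193), and 150 (26.4 to 5962) without control replicate 3. Such intervals and floors cover counting error only.

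The acrosomal membrane, equatorial and lysozyme-like group is the largest, and 13 of its 15 genes were tested. All 13 fell, beside 36.2% of all tested genes, with a median log2 fold change of -7.42. Of these 13, 8 reached the filter's cutoff in control libraries only, and 99.9% of all genes that did so fell. For those 8 a fall was thus nearly fixed by the filter. Without control replicate 3, 12 of 12 tested fell with a median of -6.15, or of -5.75 with the genes of 0 dsfb counts at their bounds. Crisp2 (chr17:40764020-40807003), which encodes a cysteine-rich secretory protein of acrosome and sperm tail, had 4.51, 4.93 and 5.71 CPM in dsfb testes, against 1062, 1287 and 1106 CPM in control testes. The log2 fold change was -7.83 (SE 0.16, adjusted p = 1.5e-07), a 228-fold lower level. Spesp1, which encodes a protein of the equatorial segment, where fusion later starts, had 20.9, 23.9 and 22.4 CPM in dsfb testes, against 218, 236 and 317 CPM in control testes. It fell by 3.52 on the log2 scale (SE 0.16, adjusted p = 1.78e-06), and its level per kilobase in dsfb testes was second to that of Clgn. Within this group, Crisp2 and Spesp1 are the members for which control replicate 3 lay within 2-fold of the other control libraries.

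Spaca1 encodes a membrane protein of the acrosome needed for its shape. It had 8.06, 5.84 and 5.77 CPM in dsfb testes, against 14.7, 16.4 and 93.4 CPM in control testes. Its log2 fold change of -2.66 (SE 0.73, adjusted p = 0.0129) came to -1.27 (adjusted p = 8.75e-07) without control replicate 3, and the call was lost without dsfb replicate 2 (adjusted p = 0.0515), without dsfb replicate 3 (adjusted p = 0.0545) and with limma-voom (adjusted p = 0.0587). Among the small SPACA proteins, Spaca4 encodes a surface protein that helps sperm pass the zona pellucida. It had 0.051, 0 and 0 CPM in dsfb testes, a single read, against 3.90, 2.89 and 42.6 CPM in control testes, a ratio of control to dsfb of 889 (95% exact interval 159 to 35151), and of 187 (33.2 to 7453) without control replicate 3. Spaca7, whose product is released in the acrosome reaction, had 0.051, 0 and 0.054 CPM in dsfb testes, against 3.95, 4.58 and 22.2 CPM in control testes, a ratio of 280 (77.2 to 2318), or 119 (32.6 to 992) without that library. Spaca9, which encodes a protein of acrosome and flagellum, had 0.608, 0.115 and 0.701 CPM in dsfb testes, against 9.71, 8.78 and 40.8 CPM in control testes, a log2 fold change of -5.35 (SE 0.84, adjusted p = 0.000965), or -4.27 without control replicate 3. In each of these genes the dsfb libraries were below every control library.

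Eqtn, the gene of equatorin, a protein of the equatorial acrosomal membrane, had 0.406, 0.745 and 0.808 CPM in dsfb testes, against 4.32, 4.99 and 32.6 CPM in control testes. It fell by 4.41 on the log2 scale (SE 0.91, adjusted p = 0.00354), which was 21.3-fold, or 7.28-fold without control replicate 3. Tmem190, whose product lies in the inner acrosomal membrane, had 0.254, 0.344 and 0.323 CPM in dsfb testes, against 2.32, 1.44 and 23.6 CPM in control testes. Its log2 fold change was -4.87 (SE 1.19, adjusted p = 0.00801), or -2.62 without control replicate 3, and limma-voom did not call it (adjusted p = 0.106).

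The lysozyme-like genes encode relatives of c-type lysozyme that are carried in the acrosome. No read of Spaca3, Lyzl1 or Lyzl4 was counted in any dsfb library. Spaca3 had 5.34, 5.07 and 56.3 CPM in control testes and showed a level at least 402-fold lower in dsfb testes, or at least 96.6-fold lower without control replicate 3. Lyzl1 had 3.07, 3.30 and 30.2 CPM in control testes and showed a level at least 220-fold lower in dsfb testes, or at least 59.2-fold lower without that library. Lyzl4 had 2.83, 3.88 and 33.5 CPM in control testes and was at least 243-fold lower, or at least 62.9-fold lower without it. These bounds differ with the depth of the control counts and do not rank the genes. Lyzl6 had 0, 0.344 and 0 CPM in dsfb testes, against 4.65, 6.27 and 47.9 CPM in control testes, and fell by 7.42 on the log2 scale (SE 1.43, adjusted p = 0.00263), or by 5.61 without control replicate 3. All of its dsfb reads were in dsfb replicate 2, and the log2 fold change was -6.80 without dsfb replicate 1 and -6.83 without dsfb replicate 3. The X-linked Spaca5 had 0.203, 0.115 and 0.108 CPM in dsfb testes, against 0.604, 0.824 and 6.32 CPM in control testes. Spaca5 fell by 4.12 (SE 1.10, adjusted p = 0.0118), but it did not pass the filter without control replicate 3 and was not called by limma-voom (adjusted p = 0.0747). The 5 lysozyme-like genes share no 50-base stretch with each other or with another gene, so reads of this length could be assigned to each of them.

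Iqcf1, whose IQ motif protein acts in the acrosome reaction, and Cabs1, which encodes a calcium-binding protein of spermatids, were seen almost only in control replicate 3. Iqcf1 had 0 counts in dsfb testes, against 0, 0.041 and 8.91 CPM in control testes. Cabs1 had 0 counts in dsfb testes, against 0, 0 and 13.5 CPM in control testes. Neither was tested, because the filter asks for a minimum count in as many libraries as the smaller group holds. With no filter beyond 1 read both were called lower, and with a minimum mean of 1 CPM neither was called.

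The proteins of sperm and egg fusion include Izumo1, which binds the egg receptor Juno, its relatives Izumo2, Izumo3 and Izumo4, and Spaca6, Tmem95, Dcst1 and Dcst2, which like Izumo1 are required for fusion in mice. Of these 8 genes 7 fell and 1, Spaca6, did not pass the test, beside 36.2% of all tested genes that fell. The median log2 fold change was -4.74. Of the 8, 3 (Izumo2, Izumo3 and Tmem95) reached the filter's cutoff in control libraries only, where nearly all genes fell. Without control replicate 3 the median was -2.92, with 7 genes lower and Spaca6 higher. Of all genes tested without that library, 38.4% fell and 33.2% rose. DESeq2 and limma-voom each called 4 of the 8 lower, and the DESeq2 count leaves out 3 genes (Izumo2, Dcst1 and Dcst2) that it gave no adjusted p.

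Izumo1 (chr7:45621811-45628823) had 1.01, 1.49 and 1.29 CPM in dsfb testes, against 4.69, 4.74 and 37.6 CPM in control testes. The groups did not overlap, and its log2 fold change was -3.63 (SE 0.89, adjusted p = 0.00804), or -1.93 without control replicate 3, while limma-voom did not call it (adjusted p = 0.0645). Izumo1 shares 654 exonic bases with Rasip1 on the same strand, and Rasip1 had 3.15 to 4.20 CPM in dsfb testes, against 1.95 to 3.09 CPM in control testes, so reads within those bases could be counted for either gene. Izumo2 had 0.152, 0.172 and 0 CPM in dsfb testes, against 1.81, 1.57 and 26.0 CPM in control testes, a log2 fold change of -6.43 (SE 1.51, adjusted p = 0.00663) that limma-voom did not call (adjusted p = 0.0811). Its 86.2-fold lower level became 15.2-fold lower without control replicate 3. Izumo3, which in mice acts in forming the acrosome, had 0 counts in dsfb testes, against 4.60, 4.54 and 28.8 CPM in control testes, and was at least 229-fold lower, or at least 84.8-fold lower without control replicate 3. Izumo4 differed from its relatives in level and in spread. It had 17.7, 18.7 and 17.9 CPM in dsfb testes, against 77.9, 81.7 and 137 CPM in control testes, and fell by 2.45 on the log2 scale (SE 0.23, adjusted p = 6.43e-05).

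Tmem95 had 0.051, 0.057 and 0.162 CPM in dsfb testes, against 1.63, 0.907 and 8.77 CPM in control testes, and was 39.4-fold lower (log2 fold change -5.30, SE 1.12, adjusted p = 0.00404), or 13.4-fold lower without control replicate 3. Without dsfb replicate 3 the log2 fold change of Tmem95 was -5.96. The head-to-head pair Dcst1 and Dcst2 encodes membrane proteins of the DC-STAMP type, and both fell. Dcst1 had 0.608, 0.916 and 0.862 CPM in dsfb testes, against 3.44, 3.50 and 36.2 CPM in control testes. Its log2 fold change was -4.17 (SE 1.03, adjusted p = 0.00833), or -2.15 without control replicate 3, and limma-voom did not call it (adjusted p = 0.0859). Of the 50-base stretches in Dcst1 transcripts, 22.5% also occur in transcripts of other annotated genes. Dcst1 shares 1268 exonic bases with Gm10702 on the opposite strand, so its counts are less certain. Dcst2 had 0.456, 0.515 and 0.701 CPM in dsfb testes, against 7.94, 6.18 and 59.2 CPM in control testes, with a log2 fold change of -5.44 (SE 1.03, adjusted p = 0.00232), or -3.68 without control replicate 3. In both genes of the pair all 3 dsfb libraries lay below 1 CPM and control replicate 3 lay far above the other control libraries. In GENCODE M21 Dcst2 starts further upstream, at chr3:89361975, so that the gene bodies of the pair overlap on opposite strands, but they share no exonic bases.

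Spaca6 (chr17:17827158-17843009) was the exception among the fusion genes. It had 24.6, 28.3 and 31.5 CPM in dsfb testes, against 13.8, 11.2 and 31.6 CPM in control testes, so the dsfb libraries lay above control replicates 1 and 2 and below control replicate 3. The mean was 28.1 ± 3.44 CPM in dsfb testes and 18.9 ± 11.1 CPM in control testes (SD, n = 3 each), and with a log2 fold change of 0.57 (SE 0.37) it was not called (adjusted p = 0.199). Without control replicate 3 it was 1.14 (adjusted p = 1.4e-07). With libraries scaled by total counts only it was 0.98 (adjusted p = 0.0332), but that scaling shifts the median over all genes by 0.396. With a replicate block it was 0.71 (adjusted p = 0.0352). Spaca6 exons share 47 bases with the microRNA gene Mir125a on the same strand.

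**Figure D2:**
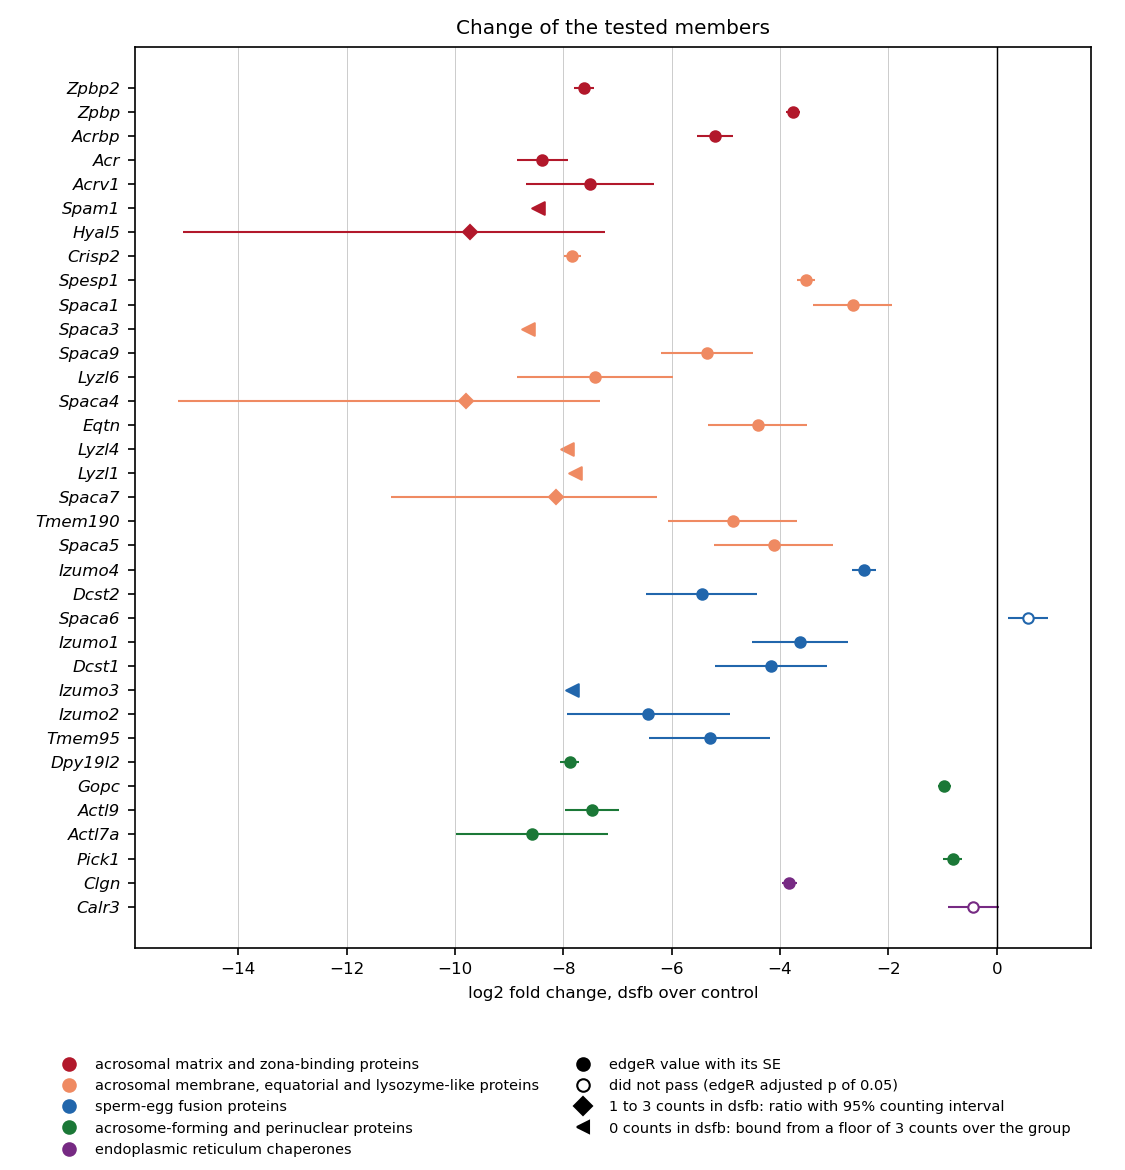
Log2 fold change of dsfb over control for the 35 tested genes, grouped by role, with bars of 1 SE; triangles are lower bounds of the fall for genes with 0 dsfb counts, diamonds are count ratios with 95% exact intervals for genes with 1 to 3 dsfb counts, and open symbols did not pass the test. All values but that of Spaca6 lie below 0, and SE is 0.726 or more for the tested genes whose control replicate 3 is over 4-fold above the other control libraries.

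Genes that act in forming the acrosome or holding it to the nucleus fell in 5 of 5 cases, beside 36.2% of all tested genes. Their median log2 fold change was -7.46 (-6.70 without control replicate 3), with a wide range. Of these 5, 1 (Actl7a) reached the filter's cutoff in control libraries only. Dpy19l2 (chr9:24557047-24696293), which encodes the inner nuclear membrane protein that anchors the acrosome and whose loss in humans gives round-headed sperm, had 0.913, 1.09 and 1.24 CPM in dsfb testes, against 223, 253 and 291 CPM in control testes. It was 236-fold lower (log2 fold change -7.88, SE 0.18, adjusted p = 1.51e-07). Gopc and Pick1 encode PDZ-domain proteins of Golgi-derived vesicle transport that many cell types use, and their changes were small. Gopc had 41.2, 32.2 and 34.3 CPM in dsfb testes, against 68.0, 72.2 and 70.1 CPM in control testes, 1.95-fold lower (log2 fold change -0.97, SE 0.11, adjusted p = 0.000214). Pick1 had 13.5, 13.6 and 13.3 CPM in dsfb testes, against 20.7, 20.6 and 29.5 CPM in control testes, 1.76-fold lower (log2 fold change -0.81, SE 0.18, adjusted p = 0.00493). With libraries scaled by total counts only the log2 fold change of Pick1 was -0.41 (adjusted p = 0.0567), and 17.8% of its 50-base stretches also occur in other annotated transcripts.

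The actin-like genes Actl7a and Actl9 are single-exon genes for proteins of the perinuclear theca, the layer between acrosome and nucleus. Actl7a had 0.101, 0.172 and 0 CPM in dsfb testes, against 10.3, 9.32 and 89.6 CPM in control testes, and its log2 fold change was -8.57 (SE 1.40, adjusted p = 0.00117), or -6.70 without control replicate 3 and -9.28 without dsfb replicate 2. Actl9 had 0.304, 0.687 and 0.162 CPM in dsfb testes, against 44.7, 59.0 and 99.5 CPM in control testes, with a log2 fold change of -7.46 (SE 0.50, adjusted p = 1.17e-05), or -8.13 without dsfb replicate 2. Neither had a dsfb library above 1 CPM.

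The testis-specific chaperones of the endoplasmic reticulum, calmegin (Clgn) and calsperin (Calr3), fold sperm surface proteins such as ADAM3 that sperm need to reach and bind the egg. Clgn (chr8:83389867-83428552) had 72.6, 93.4 and 93.3 CPM in dsfb testes, against 1172, 1266 and 1248 CPM in control testes. The mean was 86.4 ± 12 CPM in dsfb testes and 1229 ± 50.1 CPM in control testes (SD, n = 3 each), a 14.2-fold lower level (log2 fold change -3.83, SE 0.13, adjusted p = 4.88e-07). Calr3 had 6.19, 4.70 and 6.20 CPM in dsfb testes, against 5.39, 3.63 and 14.0 CPM in control testes. Its groups overlapped, and with a log2 fold change of -0.43 (SE 0.48) it was not called (adjusted p = 0.443). The sign turned without control replicate 3, where the log2 fold change was 0.32 (adjusted p = 0.223). The 2 chaperone genes therefore had unlike values in the same libraries, although the difference between them was not tested.

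The members split by how the control libraries themselves varied. For 12 genes (Acr, Acrbp, Zpbp, Zpbp2, Spesp1, Crisp2, Izumo4, Dpy19l2, Gopc, Pick1, Actl9 and Clgn) control replicate 3 lay within 2-fold of the mean of control replicates 1 and 2, as did 87.8% of all genes tested. All 12 fell, with SE of 0.113 to 0.498 on the log2 scale, and their summed level was 190 to 207 CPM in dsfb testes, against 3491, 3976 and 4198 CPM in control testes. For 23 genes control replicate 3 was more than 4-fold higher than that mean, with ratios of 4.41 to 432 where one could be formed. These 23 genes had at most 16.4 CPM in control replicates 1 and 2 and 6.32 to 104 CPM in control replicate 3. Their summed level was 11.1 to 12.1 CPM in dsfb testes, against 112, 113 and 927 CPM in control testes. Of the 21 of them that were tested 21 fell, with SE of 0.726 to 2.25 and adjusted p of 0.000526 to 0.0129. This count was largely fixed beforehand, since the set was picked by a high control library. Of the 21, 15 reached the filter's cutoff in control libraries only, and 99.9% of all genes that did so fell. Over all tested genes 36.2% fell. Without control replicate 3 all 20 of the set that could be tested fell, with log2 fold changes of -10.2 to -1.27. Spaca6 (2.52-fold) and Calr3 (3.11-fold) lay between these sets. By role, control replicate 3 was more than 4-fold higher for 3 of 7 matrix and zona-binding genes, 13 of 15 membrane, equatorial and lysozyme-like genes, 6 of 8 fusion genes, 1 of 5 forming and perinuclear genes and 0 of 2 chaperone genes.

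**Figure D3:**
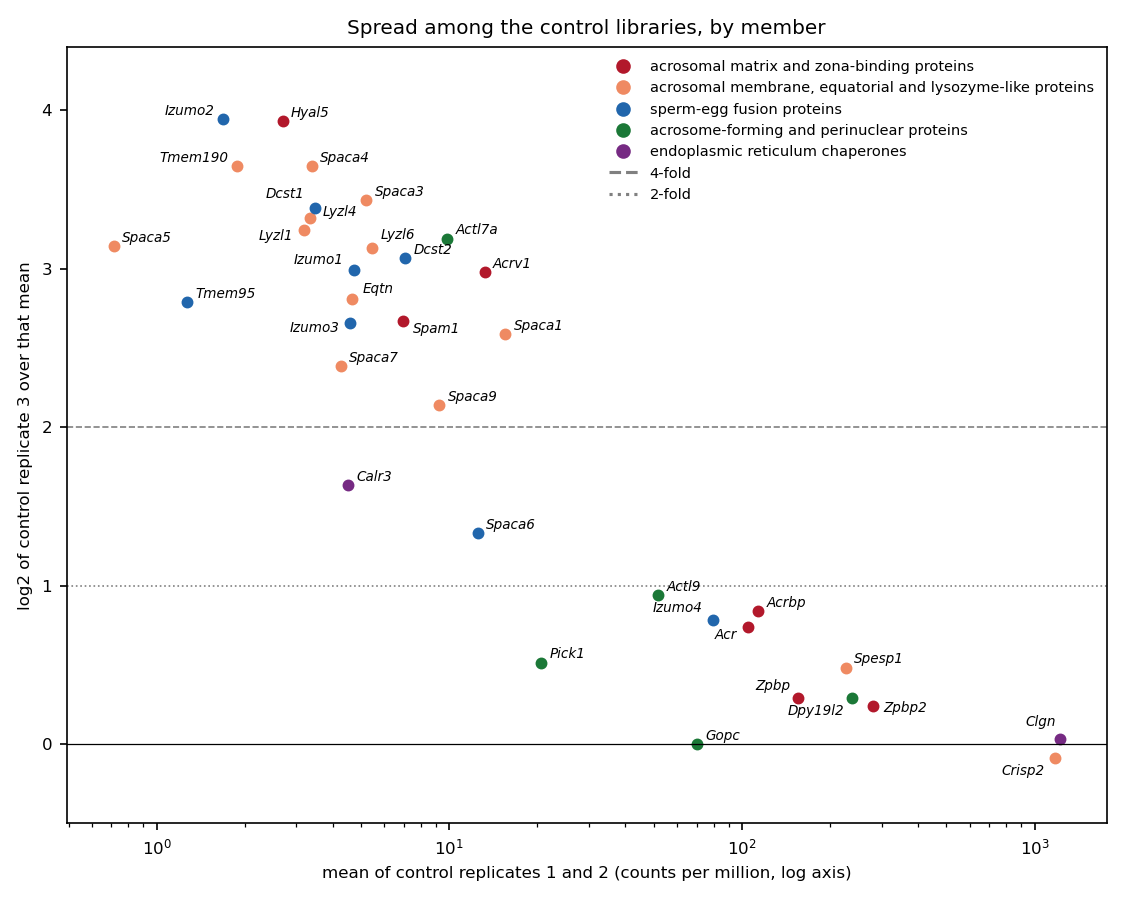
Log2 ratio of control replicate 3 to the mean of control replicates 1 and 2 (vertical axis) against that mean in CPM (log axis) for each gene, coloured by role; Iqcf1 and Cabs1 are not drawn. Genes at or under 16.4 CPM sit mostly above a ratio of 4, while the 12 genes above 20 CPM sit within a 2-fold ratio.

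Markers of late germ cells moved with these genes. The shares of all tested genes that fell and rose were 36.2% and 30.7%, and the counts for each marker list are set beside them. Of the pachytene spermatocyte markers (mid to late stage) 11 of 11 fell, and their summed level was 385 to 400 CPM in dsfb testes, against 7678, 8602 and 10606 CPM in control testes. The 4 with the smallest p were Adam5 (log2 fold change -9.99), Nme8, Piwil1 (-5.83) and the lactate dehydrogenase gene Ldhc (-8.06). Nme8 had 2 reads over the dsfb libraries, and its ratio of control to dsfb was 2895 (95% exact interval 801 to 23907). Ldhc had 9.79, 11.97 and 10.7 CPM in dsfb testes, against 2445, 2752 and 3478 CPM in control testes. Of the 14 spermatid markers 13 were tested and all 13 fell, with a summed level of 29.8 to 42.1 CPM in dsfb testes, against 423, 453 and 1567 CPM in control testes. Of these 13, 4 reached the filter's cutoff in control libraries only, as did 2 of the 11 pachytene markers. Of all genes that did so, 99.9% fell, so these falls were nearly fixed by the filter. Control replicate 3 exceeded the other control libraries more than 4-fold for 12 of the 14 spermatid markers, among them the fibrous sheath gene Akap3, with 1.62, 1.83 and 2.53 CPM in dsfb testes, against 45.2, 39.2 and 283 CPM in control testes. The log2 fold changes of Catsper2, Tekt4, Spata18 and Akap3, the spermatid markers with the smallest p, were -3.68, -8.01, -6.19 and -5.94, or -3.48, -7.41, -5.10 and -4.43 without control replicate 3. Without that library 10 of the 11 spermatid markers that could be tested fell. Catsper1 had 0 counts in dsfb testes, against 5.85, 4.91 and 65.0 CPM in control testes. It was at least 455-fold lower, or at least 99.4-fold lower without control replicate 3. The protamine gene Prm2 had 1 dsfb count, against 0.558, 1.69 and 33.3 CPM in control testes. Its ratio of control to dsfb was 640 (95% exact interval 115 to 25327), and 64.5 (11.1 to 2596) without control replicate 3. The transition protein gene Tnp1, which was not tested, had 1 dsfb count, against 1, 0 and 30 counts in control testes. Its ratio of 25.6 (4.27 to 1044) rests on control replicate 3. The part of these cell types in the fall of the acrosome genes was not tested.

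Markers of other cells moved otherwise. All 10 Sertoli cell markers rose, with a median log2 fold change of 1.01 and a summed level of 4783 to 5050 CPM in dsfb testes, against 2731, 2535 and 1996 CPM in control testes. Cldn11, Gata4, Inhbb and Dhh had the smallest p of these, with log2 fold changes of 1.20, 1.06, 1.02 and 1.003. Of 7 early meiotic markers 3 rose (Dmc1, Stra8 and Prdm9) and 1 fell (Meioc), with summed levels of 1062 to 1211 CPM in dsfb testes, against 1798, 1872 and 1025 CPM in control testes. Without control replicate 3, 3 of these 7 fell (Meioc, Sycp1 and Sycp3) and 4 rose (Dmc1, Stra8, Prdm9 and Rec8). Of 8 spermatogonial markers 5 rose (Kit, Lin28a, Zbtb16, Sall4 and Etv5) and 1 fell (Dmrtb1, log2 fold change -3.61), with summed levels of 262 to 327 CPM in dsfb testes, against 601, 674 and 838 CPM in control testes. Without Dmrtb1, a choice made after seeing the values, the sums were 222 to 273 CPM in dsfb testes, against 170, 154 and 132 CPM in control testes. Of the Leydig cell markers 3 of 6 rose (Insl3, Lhcgr and Star) and 0 fell, with summed levels of 245 to 523 CPM in dsfb testes, against 205 to 365 CPM in control testes, and 5 of 6 rose without control replicate 3. Of the peritubular myoid markers 3 of 5 rose (Myh11, Des and Acta2) and 0 fell, with 348 to 475 CPM in dsfb testes, against 190 to 303 CPM in control testes. Of the macrophage markers 4 of 6 rose (C1qa, Csf1r, Cd68 and C1qb) and 0 fell, with 117 to 188 CPM in dsfb testes, against 71.6 to 103 CPM in control testes. Of 6 epididymal markers 5 had 0 counts in dsfb testes. Of those, Crisp1, Lcn5, Spink11 and Adam28 were nearly absent from control testes too, with 3, 0, 1 and 1 counts over all control libraries. The 1 that was tested, Rnase10, fell, with 0 counts in dsfb testes, against 5.30, 4.86 and 5.72 CPM in control testes. Rnase10 reached the filter's cutoff in control libraries only. The summed level of the 6 was 0.051 to 0.108 CPM in dsfb testes, against 5.36 to 5.91 CPM in control testes. Nearly all of the control sum was Rnase10. The part of these cell types in the result was likewise not tested.

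**Figure D4:**
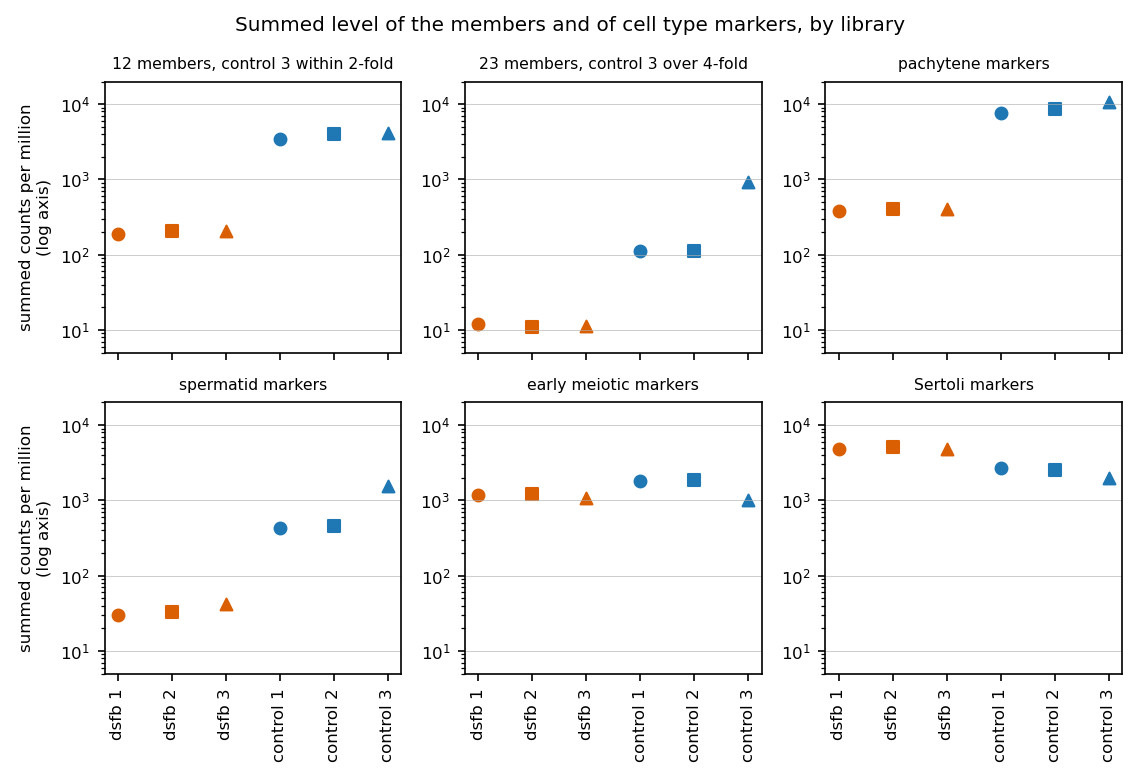
Summed CPM per library, dsfb left and control right, for the 12 genes with control replicate 3 within 2-fold of the other control libraries, the 23 genes with control replicate 3 over 4-fold above them, and the markers of pachytene spermatocytes, spermatids, early meiotic cells and Sertoli cells. The 12 genes and the pachytene markers are low in all dsfb libraries and similar among control libraries, the 23 genes and the spermatid markers peak in control replicate 3, and the Sertoli markers are higher in dsfb testes.

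A wider list of 56 other genes of acrosome formation and fertilization, of which 55 were found, showed a more mixed picture. Of the 45 tested, 30 fell, 5 rose and 10 did not pass the test, against 36.2% of all tested genes that fell and 30.7% that rose, with a median log2 fold change of -1.54. Of these 45, 13 (Adam3 and Fam170a among them) reached the filter's cutoff in control libraries only. Of all genes that did so, 99.9% fell, so a fall of those 13 was nearly fixed by the filter. The strongest calls were Adam3, the sperm surface protein that Clgn and Calr3 fold, Spata16, a Golgi protein of acrosome formation, Fam170a, a testis gene, and Lypd4, a sperm surface gene. Adam3 had 0.101, 0.172 and 0.054 CPM in dsfb testes, against 517, 596 and 789 CPM in control testes, a log2 fold change of -12.45 (SE 0.32), and it shares exonic bases with Gm45528 on the opposite strand. Spata16 had 0.71, 1.72 and 1.19 CPM in dsfb testes, against 307, 351 and 355 CPM in control testes, a log2 fold change of -8.14 (SE 0.24). The log2 fold changes of Fam170a and Lypd4 were -9.45 (SE 0.27) and -6.79 (SE 0.22). The 5 genes that rose, Nectin2 (1.18), Mfge8 (1.44), B4galt1 (0.90), Cd9 (0.74) and Cd81 (1.17, all log2 fold changes), encode adhesion and membrane proteins that somatic cells also make. Mfge8, for example, had 169, 194 and 162 CPM in dsfb testes, against 66.5, 60.7 and 65.9 CPM in control testes. For 22 of the 55 genes control replicate 3 was more than 4-fold above the other control libraries.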

How the data were processed

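Testes of 3 dsfb and 3 control mice were each deposited as a column of raw counts per gene, whole numbers made by the authors. STAR 2.6.0 and mm10 are named in the submitters' processing notes, and a NEBNext Ultra kit in the labels' protocols. How reads were assigned to genes, on which annotation and whether by strand is not given in the sources used, so overlapping genes are uncertain. All 6 columns were used.

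Symbols and exons came from GENCODE M21 (GRCm38) and promoters, without those of chromosome 18, from RefSeq (GRCm38.p6). Members and lists were chosen with earlier results of these data known. Every member was named, as were up to 4 genes with the smallest p of each other list, some of them by count only. The 5 fertilization genes and the other markers named for rising or falling in small numbers, and Catsper1, Prm2 and Tnp1, were chosen after their values were seen.

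Counts were filtered with filterByExpr (minimum 10 counts, total 15), scaled by TMM and fitted over all genes with edgeR 4.0.16 (R 4.3.3; glmQLFit, glmQLFTest, group only), with Benjamini-Hochberg adjustment over all genes and a threshold of 0.05. The SE was computed as |log2 fold change| divided by √F. The fit was tested on simulated data first. Those data had few changed genes, small folds and no outlying library, unlike the data here, so they do not check the fit in this setting. CPM use TMM-scaled totals. Genes with 0 dsfb counts get a bound (3 counts summed over the dsfb libraries as the floor). Members and named genes with 1 to 3 get a ratio with an exact 95% Clopper-Pearson interval. Alternatives were RLE, upper-quartile and total-count scaling, no filter beyond 1 read, a mean of at least 1 CPM, DESeq2 1.42.0, limma-voom (3.58.1), a replicate block and leaving out each library. Shared stretches of 50 bases were counted over all GENCODE M21 transcripts; a planned comparison of protein sequences was not made.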

Additional observations from a re-analysis of the deposited data

How the results depend on the processing

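The count of members that fell was 33 in the reported fit, 33 with RLE and upper-quartile scaling and with the replicate block, 32 with total counts only, 35 (Iqcf1 and Cabs1 added) with no filter beyond 1 read, 33 with a mean of at least 1 CPM, 27 with limma-voom and 24 with DESeq2, which gave no adjusted p for 9. Leaving out each library in turn gave 32 to 33 falls and 0 to 1 rises among the members, and 6889 to 7621 falls and 4940 to 6596 rises over all genes. The count that rose was 1 rather than 0 with total counts only, with the replicate block and without control replicate 3, in each case Spaca6, which is 1 rise among the fusion genes too (0 to 1 when leaving out each library). Falls among the 8 fusion genes were 7, and 4 with DESeq2 and with limma-voom. Calr3, at a log2 fold change of -0.43, was at -0.78 to 0.32 when each library was left out, 0.32 being the value without control replicate 3. The cause of these changes was not tested. Rises made up 45.9% of calls over all genes, 60.9% with total counts only, 57.2% with upper-quartile scaling and 35.5% with no filter beyond 1 read, while the medians of all genes shifted by 0.396, 0.278 and -0.303. Same-numbered libraries correlated in their deviations at 0.071, 0.061 and 0.116, and each library correlated best with its own number. Correlations this small do not settle whether the numbers pair the animals. The replicate block changed no member's call but that of Spaca6, and it put Tmem190, Izumo1 and Dcst1 at -4.26, -2.99 and -3.46. For 10 members with more than 3 dsfb counts (Acrv1, Spaca5, Eqtn, Tmem190, Izumo1, Izumo2, Tmem95, Dcst1, Dcst2 and Actl7a) the limma-voom log2 fold change was nearer to 0 by 0.65 to 1.20. Genes with few reads are limited by depth: 10 members had 0 to 3 counts over all dsfb libraries.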
